A study of Sus scrofa with 8 samples.

Results

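Transcription factors are proteins that bind short DNA sequences near genes and raise or lower their transcription. In the heart, T-box, homeobox, GATA and basic helix-loop-helix (bHLH) factors specify the working muscle cells of the chambers, whereas other factors mark fibroblasts and leukocytes, which enter or expand in the wall after an infarction. Zinc finger proteins are a wider class, in which a zinc-held fold binds DNA, RNA or other proteins. The genes described here are 44 genes, measured by 46 transcript clusters of the 25470 on the array, whose deposited description names a transcription factor, a zinc finger, a homeobox, a forkhead, a T-box or an SRY-type protein, and no receptor, kinase, ubiquitin enzyme or solute carrier.

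They were measured in the infarcted and in the remote left ventricular wall of 4 Large White pigs, which gave 4 infarcted and 4 remote samples. All animals were young females, healthy before the procedure and kept in the study for an infarct above a minimum size with a low ejection fraction, and each had its left anterior descending coronary artery blocked by a balloon for 90 min, so the remote sample is the posterior wall of the same infarcted heart and not of a healthy one. The infarcted sample is the anterior wall, at the same mid-ventricular level. All pigs also received amiodarone, acetylsalicylic acid and antibiotics. The deposited design text places tissue collection at day 7, and the methods of the study give a later day.

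Gene names came from a deposited sheet that lists only clusters past a fold change of 2 and an unadjusted p of 0.05 between the regions, so these genes were chosen by the same infarcted and remote signals that are described below. Differences between the regions are therefore given as values, with no p for any gene, and counts of genes past a limit are descriptions only. Of the 2331 clusters of that sheet, 1533 carried a symbol. Factors that changed less carry no name in the sheet and were not analysed here. Values are deposited log2 signals, on which 1 unit is a 2-fold change, and a difference is infarcted minus remote within a pig, averaged over the 4 pigs with its SD. Where a gene had several clusters, the brightest one stands for it. Names of 4 genes (PRRX1, SOX6, TRPS1 and ZFC3H1) were brought up to date from RefSeq gene records. Another 3 members carry only a locus number, with a description that resembles FOXP1 (LOC106505642), MITF (LOC100736857) or ZNF791 (LOC100520720).

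The description words gathered more than transcription factors. Of the 44 genes, 7 encode zinc finger proteins known for other work (ZFAND5, ZC3H12C, ZC3H12D, ZCCHC6, ZDHHC2, ZFC3H1 and DZIP1) and 3 encode chromatin proteins or cofactors (BAZ1A, DPF3 and ATF7IP). The remaining 34 belong to families of DNA-binding factors or are numbered zinc finger genes, several of which have no known target. A further limit is shared annotation: 15 genes share their cluster with an unnamed or similar locus. These are PRRX1, TRPS1, PRDM1, BNC2, BAZ1A, MEIS1, TCF12, REST, ZFC3H1, DPF3, FOXP2, ZFAND5, SOX6, ZNF365 and ZNF664. Another 2 clusters list a factor together with an unrelated gene (TBX10 with NUDT8, and ATF6B with tenascin-X).

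Infarcted tissue had the higher mean signal for 22 of the 44 genes and the lower for 22. The median difference was 1.36 over the higher genes and −1.27 over the lower ones, beside 1.35 and −1.45 over the 679 higher and 854 lower named clusters of the same sheet. The difference had 1 sign in all 4 pigs for 18 of the 22 higher genes (14.3% of all clusters were higher in every pig) and for 19 of the 22 lower genes (13.6% of all clusters were lower in every pig). The 4 infarcted values lay above all 4 remote values for 16 of the 22 higher genes (5.19% of all clusters) and below them for 12 of the 22 lower genes (5.06%). Some of these separations were near ties. For ZC3H12C the lowest infarcted value was 4.55 and the highest remote value 4.53. For ZNF804B the highest infarcted value was 3.19 and the lowest remote value 3.20. In limma, 15 higher genes (2.19% of all clusters) and 15 lower genes (3.19%) passed both limits used here, a Benjamini-Hochberg adjusted p below 0.05 and more than 2-fold in size. These counts hang on single arrays: without infarcted tissue of pig 1, 2 or 3 the higher genes that passed were 7, 9 and 7, and without remote tissue of pig 1, 2 or 3 they were 7, 8 and 8. The lower genes that passed were 5, 11 and 5 without infarcted tissue of pig 1, 2 or 3, and 4, 4 and 5 without remote tissue of these pigs. Without infarcted tissue of pig 4, 21 higher and 14 lower genes passed, and without its remote tissue 14 higher and 18 lower ones. Each of these fits also has 1 array fewer, and the part of that in the smaller counts was not tested. Of the 44 genes, 14 had a signal under the array median on at least 1 array. Because the sheet was filtered on this contrast, these shares follow from the choice of the genes and nothing is read from them. Of the named clusters, 86.3% of the 679 higher and 89.9% of the 854 lower ones had 1 sign in all 4 pigs. The regions did not overlap for 61.3% of the higher and 61.1% of the lower named clusters. Both limits were passed by 54.6% of the higher and 61.8% of the lower named clusters. Counts over gene lists below, which hold named clusters alone, are limited in the same way.

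**Figure D1:**
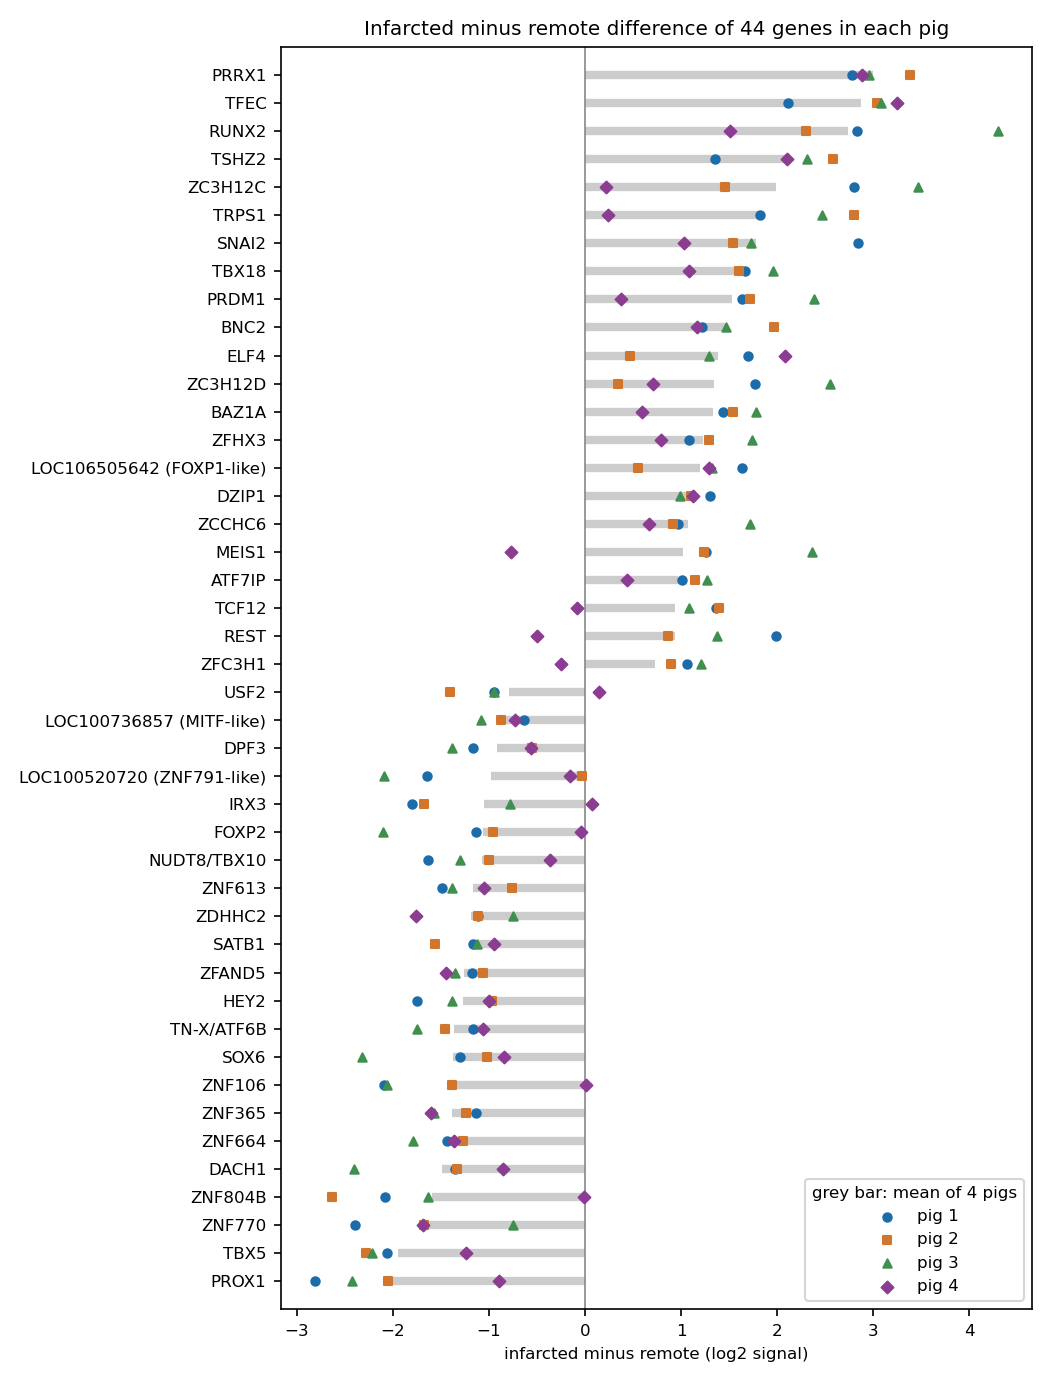
Infarcted minus remote difference in log2 signal (horizontal axis) for each of the 44 genes (rows, from the highest to the lowest mean), with 1 point for each pig and a grey bar for the mean of 4 pigs. PRRX1 has the highest mean, 3.0, and PROX1 the lowest, −2.05, and points of pig 4 lie across zero from the bar in 7 genes.

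The higher genes included several factors known from mesenchymal and skeletal cells, beside TFEC and ZC3H12C, which are described with the leukocyte factors. PRRX1, a homeobox factor of embryonic mesenchyme and of fibroblasts, had log2 signals of 7.24, 7.30, 7.34 and 6.84 in infarcted tissue of pigs 1 to 4, against 4.46, 3.92, 4.38 and 3.95 in remote tissue. Every infarcted value was more than 2 units above every remote value, and the difference of 3.0 ± 0.26 (SD, n = 4 pigs), an 8.01-fold higher signal, varied little between pigs. RUNX2, the factor that directs bone-forming cells, had 5.51, 5.22, 6.46 and 3.65 in infarcted tissue and 2.68, 2.92, 2.16 and 2.14 in remote tissue, a difference of 2.74 ± 1.18. Its infarcted values were widely spread, with pig 3 at the top and pig 4 at the bottom, and its remote values lay below the median signal of each array, so that level is not shown to be above background and the size of the difference is not exact.

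TSHZ2, a teashirt-type zinc finger homeobox factor, reached 6.34, 7.39, 6.21 and 6.09 in infarcted tissue, against 4.99, 4.81, 3.90 and 3.99 in remote tissue (2.09 ± 0.53). Pig 2 was highest in infarcted tissue, and pig 1 had the smallest difference, 1.35. TBX18, a T-box factor of the epicardium and of the developing sinus node, had 5.42, 5.43, 5.39 and 4.37 in infarcted tissue and 3.75, 3.83, 3.43 and 3.29 in remote tissue (1.58 ± 0.37). Its infarcted values in pigs 1 to 3 were almost equal and that of pig 4 was lower, though still above every remote value.

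SNAI2, also called Slug, a zinc finger repressor of epithelial adhesion genes in migrating cells, had 6.08, 4.77, 5.51 and 4.35 in infarcted tissue, against 3.24, 3.23, 3.78 and 3.32 in remote tissue (1.79 ± 0.76). It is represented by 2 clusters whose 8 values are identical, so they count as 1 measurement. TRPS1, a GATA-type zinc finger repressor of cartilage and bone development, had a difference of 1.83 ± 1.14, with values of 5.29, 5.92, 5.71 and 3.57 in infarcted tissue and 3.47, 3.12, 3.24 and 3.33 in remote tissue. Its difference was 1.82 to 2.80 in pigs 1 to 3 and 0.24 in pig 4. BNC2, a relative of the keratinocyte protein basonuclin, had 4.78, 4.80, 4.79 and 4.58 in infarcted tissue, against 3.56, 2.83, 3.32 and 3.41 in remote tissue (1.46 ± 0.37). Its groups were more than 1 unit apart at their nearest values, 4.58 and 3.56. The remote signal of BNC2 in pig 2 lay below the array median, so the difference of 1.97 there is not exact.

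Of 47 mesenchymal factors in a list made for this description, 5 were named in the sheet (PRRX1, RUNX2, SNAI2, TBX18 and BNC2), all 5 with the higher mean in infarcted tissue and past both limits (2.19% of all clusters and 54.6% of the higher named ones were), with a median difference of 1.79. Collagen and other fibroblast genes named in the sheet were also higher in infarcted tissue. Of 12 fibroblast and myofibroblast markers 8 were named, 7 of these were past both limits and higher, and their mean log2 signal was 7.20 to 8.82 in infarcted samples and 4.33 to 5.97 in remote samples. Of the 8, CTHRC1 was below the array median in every remote sample. In bulk tissue, more cells of a type and more RNA per cell cannot be told apart, and the part of cell composition in these differences was not tested.

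A second group of higher genes is known from leukocytes. Not every gene known from these cells was higher: SATB1, known from T cells, was lower in infarcted tissue (−1.20 ± 0.26) and is described below. TFEC, a bHLH leucine zipper factor of the MITF family that is expressed in macrophages, had 7.35, 7.77, 7.10 and 5.83 in infarcted tissue, against 5.24, 4.73, 4.02 and 2.58 in remote tissue. The mean difference was 2.87 ± 0.51 (a 7.31-fold higher signal). Both regions were lowest in pig 4, where the remote signal was below the array median, so the difference of 3.25 there is not exact. PRDM1, known as Blimp-1, a zinc finger repressor of plasma cells and other mature lymphocytes, had 5.31, 4.64, 5.60 and 3.79 in infarcted tissue and 3.67, 2.92, 3.21 and 3.41 in remote tissue (1.53 ± 0.84). Its values in pig 4 were 0.38 apart. The remote signal of PRDM1 in pig 2 lay below the array median, so the difference of 1.72 there is not exact.

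ELF4, an ETS factor of lymphoid and myeloid cells, had 4.76, 4.15, 4.15 and 4.21 in infarcted tissue, against 3.06, 3.68, 2.86 and 2.13 in remote tissue (1.39 ± 0.69). Its infarcted values were close together and its difference was smallest in pig 2, at 0.47, where the remote signal was highest. The remote signal of ELF4 lay below the array median on 2 arrays, so the sizes are not exact. ZC3H12C and ZC3H12D, CCCH-type zinc finger RNA-degrading proteins of the Regnase family known from immune cells, differed by 1.99 ± 1.44 and 1.34 ± 1.01. The first had the widest spread over pigs of all 44 genes, with differences of 2.80, 1.46, 3.47 and 0.22 in pigs 1 to 4. The second overlapped between the regions, with 4.20, 3.44, 4.74 and 4.63 in infarcted tissue and 2.43, 3.10, 2.19 and 3.92 in remote tissue. Its remote signal lay below the array median on 2 arrays.

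From a list of leukocyte factors, TFEC and, outside the description rule, ID2 (1.31) were higher in infarcted tissue and past both limits. Macrophage markers named in the sheet were also higher in infarcted tissue, and whether they varied together with these genes between samples was not tested. Of 12 such markers 6 were named, all 6 higher and past both limits (2.19% of all clusters and 54.6% of the higher named ones were). Their mean log2 signal was 5.55 to 6.96 in infarcted samples and 3.70 to 4.50 in remote samples. Of 6 neutrophil markers 3 were named, 1 of them past both limits, with a mean of 2.82 to 5.47 in infarcted samples and 2.30 to 2.64 in remote samples. S100A12 and MMP9 lay below the array median in every remote sample. Their part in the differences of TFEC, PRDM1 and ELF4 was not tested.

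**Figure D2:**
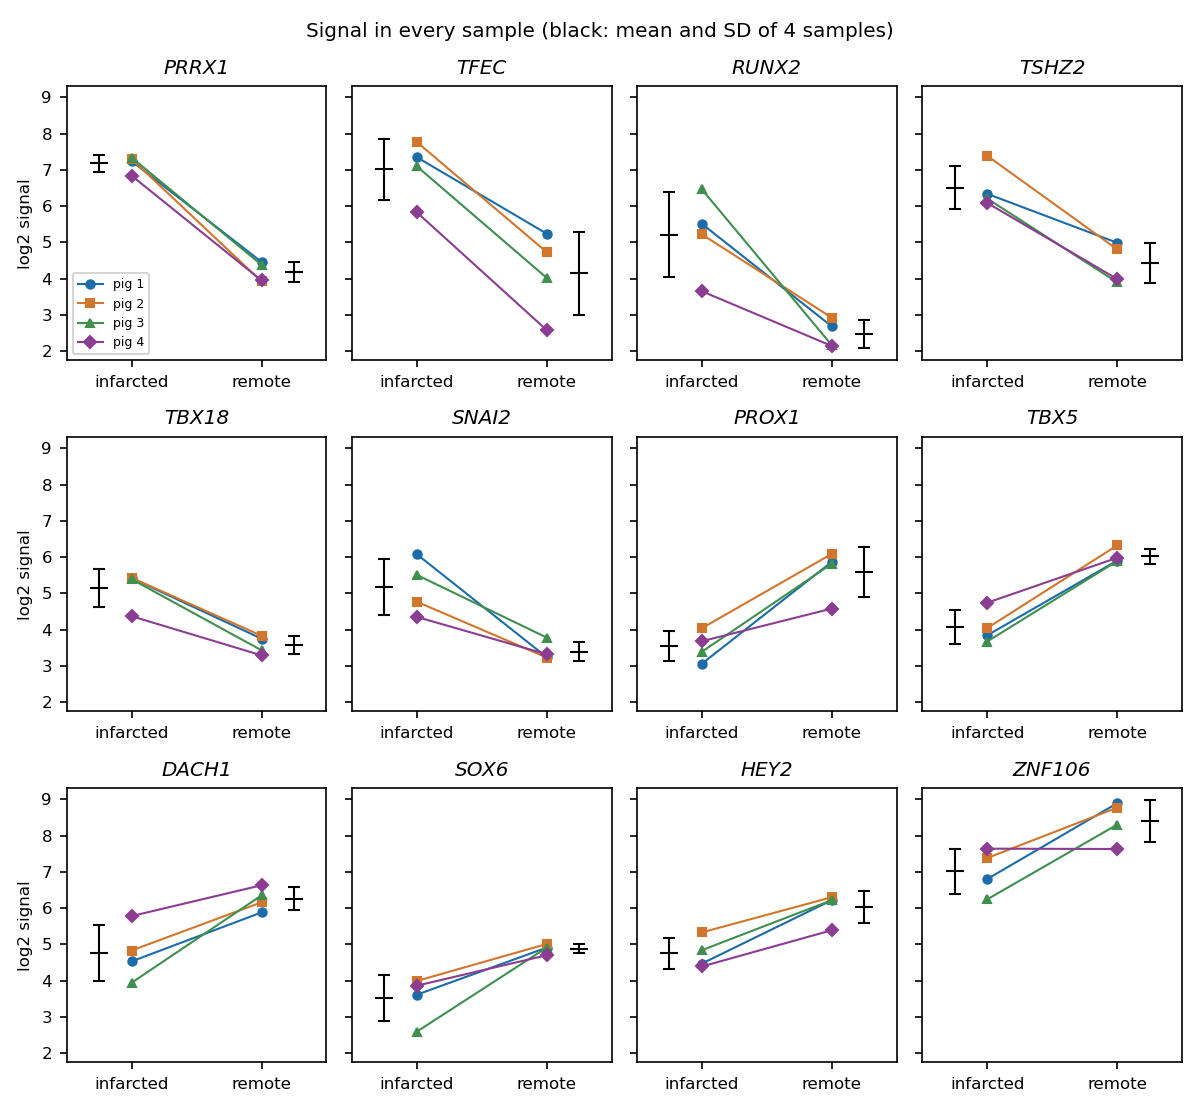
Log2 signal (vertical axis) of 12 genes in infarcted tissue (left of each panel) and remote tissue (right), with a line for each pig and the mean and SD of 4 samples in black. PRRX1 lines run nearly parallel, while the line of pig 4 is flat for ZNF106, at 7.64 in infarcted and 7.63 in remote tissue.

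The lower genes include factors that shape the heart chambers. PROX1, a prospero-type homeobox factor of lymphatic vessels that also maintains heart muscle structure in mice, had 3.06, 4.04, 3.39 and 3.68 in infarcted tissue, against 5.87, 6.09, 5.82 and 4.58 in remote tissue. Its difference of −2.05 ± 0.83, a signal 4.13-fold lower in infarcted tissue, was the largest among the lower genes, and in pig 4 it was −0.90. TBX5, a T-box factor required for formation of the heart and forelimb, had 3.84, 4.04, 3.67 and 4.74 in infarcted tissue and 5.90, 6.32, 5.89 and 5.98 in remote tissue (−1.95 ± 0.48). Remote values of TBX5 were close together, and the infarcted value of pig 4 was the highest of the 4.

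HEY2, a bHLH repressor downstream of Notch in the compact ventricular wall, had 4.47, 5.33, 4.84 and 4.39 in infarcted tissue, against 6.22, 6.30, 6.22 and 5.39 in remote tissue (−1.28 ± 0.37). The nearest values of its 2 groups, 5.33 in infarcted tissue of pig 2 and 5.39 in remote tissue of pig 4, were almost equal. IRX3, an iroquois homeobox factor of the ventricular conduction system in mice, had 3.43, 4.06, 3.79 and 3.90 in infarcted tissue and 5.23, 5.74, 4.57 and 3.83 in remote tissue (−1.05 ± 0.87). Its regions overlapped, because remote tissue of pig 4 was at the level of infarcted tissue.

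SOX6, an SRY-type factor that sets muscle fibre type, had 3.61, 3.99, 2.59 and 3.86 in infarcted tissue, against 4.91, 5.01, 4.91 and 4.70 in remote tissue (−1.37 ± 0.66). The infarcted sample of pig 3 was lowest and gave the largest difference, −2.32. That infarcted signal lay below the array median, so the size is not exact. DACH1, a dachshund family factor linked to coronary artery growth in mice, had 4.53, 4.83, 3.94 and 5.78 in infarcted tissue and 5.88, 6.16, 6.35 and 6.63 in remote tissue (−1.49 ± 0.66). Both regions of pig 4 were the highest of their group for DACH1. SATB1, a homeobox-type organiser of chromatin known from T cells, had 4.86, 4.86, 4.50 and 4.55 in infarcted tissue, against 6.03, 6.42, 5.62 and 5.50 in remote tissue (−1.20 ± 0.26), with no overlap.

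Of 34 cardiac factors listed, 8 were named in the sheet and all 8 had the lower mean in infarcted tissue, 6 of them past both limits and IRX3 and ANKRD1 not (3.19% of all clusters and 61.8% of the lower named ones were past them). Besides PROX1, TBX5, HEY2 and IRX3 these were GATA6 (−1.89), HAND2 (−2.22), SMYD1 (−2.39) and ANKRD1 (−1.53), which lie outside the description rule. MEIS1, a factor with a role in heart muscle cells, is not among these 8 and had the higher mean in infarcted tissue (1.02 ± 1.30). Heart muscle genes named in the sheet were lower as well: 9 of 14 cardiomyocyte markers were named, all lower and 6 of them past both limits. Their mean log2 signal was 6.08 to 8.40 in infarcted samples and 9.35 to 10.02 in remote samples. The infarcted sample of pig 4 had the highest mean of these markers among infarcted samples and its remote sample the lowest among remote samples. Their part in the lower signal of the cardiac factors was not tested.

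The other lists held few named genes. Of 22 vascular factors ETS2 alone was named (−1.17, past both limits), of 21 metabolic factors MLXIP alone (1.05, past both limits), and of 46 stress and growth factors NFE2L1 (−1.13) and REL (1.1), neither past both limits. None of 27 general transcription factors was named, nor any of 7 endothelial or 2 red cell markers. Of 6 lymphocyte markers NKG7 was named (1.48), of 6 smooth muscle markers TAGLN (1.69) and ACTG2 (2.84), all past both limits, and of 4 proliferation markers CENPF (1.47), which was not.

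All 7 numbered zinc finger genes were lower in infarcted tissue, with mean differences between −1.63 and −0.98. This group was made by name or description and not by function, and it holds ZNF106, known for RNA binding, and ZNF365. Most vertebrate genes of this kind encode arrays of finger repeats and bind DNA as repressors, but the targets of many are unknown. ZNF770 had 3.08, 4.15, 3.50 and 2.65 in infarcted tissue, against 5.47, 5.83, 4.25 and 4.34 in remote tissue (−1.63 ± 0.67). Its infarcted signal in pig 4 lay below the array median. ZNF664 had 5.36, 5.77, 4.88 and 4.33 in infarcted tissue and 6.80, 7.04, 6.67 and 5.69 in remote tissue (−1.47 ± 0.23). For ZNF664 the regions overlapped, since the remote value of pig 4 (5.69) was below the infarcted value of pig 2 (5.77), although the difference within each pig was between −1.79 and −1.27.

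ZNF365, which acts in genome stability, had a difference of −1.39 ± 0.23, from 2.80, 3.15, 2.30 and 1.88 in infarcted tissue against 3.94, 4.39, 3.87 and 3.48 in remote tissue. Of its infarcted values 3 lay below the array median, so its infarcted level is not shown to be above background. The same holds for ZNF804B, whose infarcted values of 2.53, 2.24, 2.38 and 3.19 were below the median on all 4 arrays, against 4.61, 4.87, 4.02 and 3.20 in remote tissue (−1.59 ± 1.13). ZNF106, an RNA-binding zinc finger protein of muscle and nerve, had 6.80, 7.38, 6.24 and 7.64 in infarcted tissue and 8.89, 8.77, 8.30 and 7.63 in remote tissue (−1.38 ± 0.98). In pig 4 the regions were almost equal for both genes, with differences of −0.01 for ZNF804B and 0.01 for ZNF106. ZNF613 differed by −1.17 ± 0.33 and LOC100520720 by −0.98 ± 1.04. The difference of LOC100520720 was −1.65 and −2.09 in pigs 1 and 3, but −0.03 and −0.16 in pigs 2 and 4. Its signal lay below the array median on 3 infarcted arrays and 1 remote array, so the sizes are not exact.

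The 5 zinc finger factors with names of their own, SNAI2, BNC2, PRDM1, TRPS1 and REST, were all higher in infarcted tissue (0.93 to 1.83). The contrast with the numbered genes was seen after the values were known and was not tested. REST, a repressor of neuronal genes, had 5.74, 5.27, 5.74 and 4.38 in infarcted tissue and 3.75, 4.41, 4.36 and 4.88 in remote tissue (0.93 ± 1.06), and its pig 4 had the higher value in remote tissue.

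**Figure D3:**
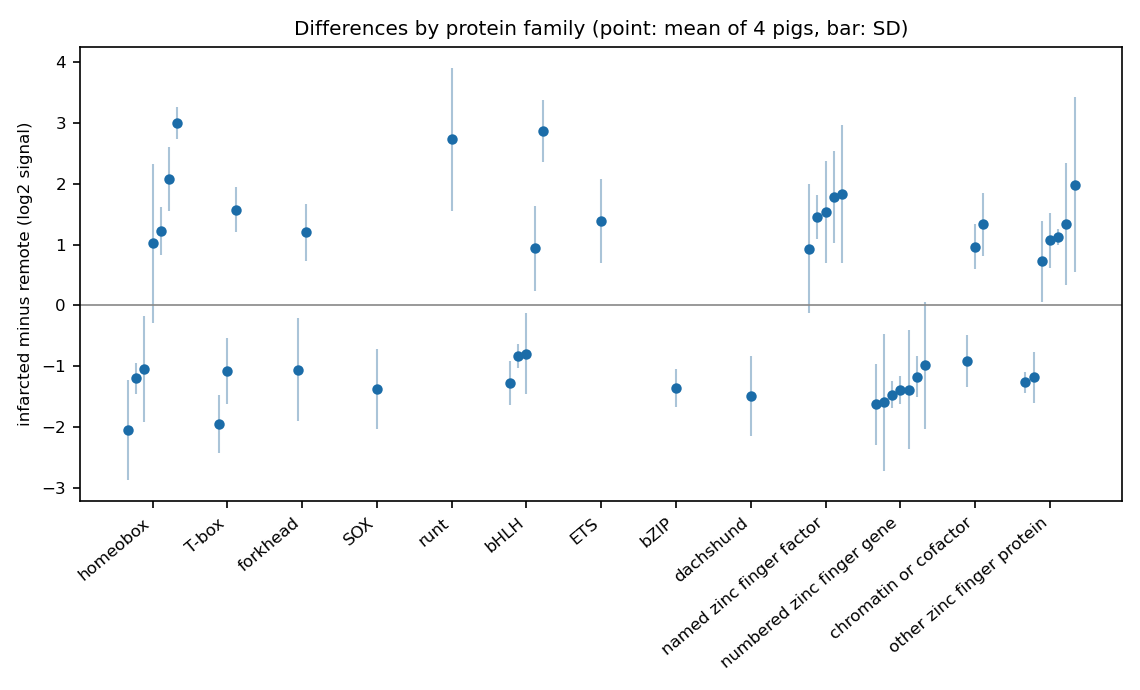
Mean infarcted minus remote difference in log2 signal (vertical axis) of each gene, grouped by protein family (horizontal axis), with bars for the SD of 4 pigs. All 7 numbered zinc finger genes lie below zero and all 5 other zinc finger factors with names above it, while the 7 homeobox and 5 bHLH genes lie on both sides.

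Related factors lay on opposite sides in several families. Of 7 homeobox genes 4 were higher (PRRX1, TSHZ2, ZFHX3 and MEIS1) and 3 lower (PROX1, SATB1 and IRX3). Among T-box genes TBX18 was higher in infarcted tissue (1.58) and TBX5 lower (−1.95). In the forkhead family LOC106505642, described as similar to FOXP1, had 7.57, 6.54, 7.0 and 6.81 in infarcted tissue, against 5.93, 5.99, 5.68 and 5.52 in remote tissue (1.20 ± 0.46). FOXP2 had 4.45, 4.87, 3.55 and 4.72 in infarcted tissue and 5.58, 5.83, 5.65 and 4.76 in remote tissue (−1.06 ± 0.84). The first of these did not overlap between the regions, and the second overlapped through pig 4.

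In the MITF family TFEC was higher in infarcted tissue, whereas LOC100736857, described as similar to MITF, had 5.44, 4.95, 4.82 and 4.40 in infarcted tissue and 6.07, 5.82, 5.90 and 5.13 in remote tissue (−0.83 ± 0.20). The difference of LOC100736857 was small but had a narrow spread, from −1.08 to −0.63. The remaining bHLH genes were TCF12, an E protein that pairs with tissue-specific bHLH factors (0.94 ± 0.69), and USF2, which binds E-box sequences (−0.79 ± 0.66). For both, pig 4 had the opposite sign (−0.08 and 0.15). MEIS1, a homeobox factor that restrains division of heart muscle cells in mice, had 4.10, 4.58, 5.03 and 2.74 in infarcted tissue, against 2.84, 3.34, 2.67 and 3.51 in remote tissue (1.02 ± 1.30), and pig 4 again had the opposite sign, at −0.77. The MEIS1 signal lay below the array median on 1 infarcted array, that of pig 4, and on 2 remote arrays, so the sizes are not exact. ZFHX3, a large homeobox and zinc finger protein with a locus for atrial fibrillation in humans, had 5.38, 5.23, 5.30 and 5.17 in infarcted tissue and 4.30, 3.94, 3.56 and 4.38 in remote tissue (1.23 ± 0.40), with no overlap.

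Chromatin proteins and cofactors differed in both directions. BAZ1A, the ACF1 subunit of nucleosome-spacing complexes, differed by 1.34 ± 0.52 in its brighter cluster, with 6.03, 6.18, 6.49 and 4.92 in infarcted tissue and 4.59, 4.64, 4.71 and 4.33 in remote tissue. A second, dimmer cluster of BAZ1A differed by 1.79 ± 0.59, also without overlap, and its signal lay below the array median on 1 remote array. ATF7IP, a partner of the histone methyltransferase SETDB1, had 8.28, 8.31, 8.48 and 7.41 in infarcted tissue, against 7.27, 7.16, 7.21 and 6.97 in remote tissue (0.97 ± 0.37). Its difference was small, yet every infarcted value was above every remote value. DPF3, a BAF complex subunit that reads histone acetylation, differed by −0.92 ± 0.43, with 3 of its 4 infarcted values below the array median.

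The 7 zinc finger proteins set apart above as known for other work comprised 5 higher and 2 lower genes. Numbered zinc finger genes were grouped by name, so ZNF106 and ZNF365, both lower, are not counted among these 7. DZIP1, a protein of the base of the cilium, had the most even difference of all 44 genes, 1.13 ± 0.13, with 5.87, 5.45, 4.98 and 4.97 in infarcted tissue and 4.57, 4.35, 3.99 and 3.84 in remote tissue. ZCCHC6, an enzyme that adds uridines to RNA, differed by 1.07 ± 0.45, and ZFC3H1, an RNA surveillance protein of the nucleus, by 0.73 ± 0.67. ZFAND5, an AN1-type protein that stimulates protein breakdown by the proteasome, had 6.96, 7.20, 6.79 and 6.56 in infarcted tissue, against 8.14, 8.26, 8.14 and 8.01 in remote tissue (−1.26 ± 0.17). It was the lower gene with the smallest spread and its difference exceeded 1 unit in every pig. ZDHHC2, a palmitoyltransferase, differed by −1.18 ± 0.42, with overlapping regions.

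For 2 lower clusters the factor cannot be separated from a neighbour. The cluster of NUDT8, TBX10 and another locus had 3.50, 3.61, 3.38 and 3.76 in infarcted tissue and 5.14, 4.61, 4.68 and 4.12 in remote tissue (−1.08 ± 0.54). The cluster of tenascin-X and ATF6B had 2.99, 3.15, 2.92 and 3.25 in infarcted tissue, against 4.16, 4.61, 4.67 and 4.31 in remote tissue (−1.36 ± 0.31). Neither overlapped between the regions. The infarcted signal of the tenascin-X and ATF6B cluster lay below the array median on 2 arrays.

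Although the sheet lists only clusters of at least 2-fold, 8 genes averaged under 2-fold here, ZFC3H1, REST, TCF12 and ATF7IP among the higher genes and USF2, LOC100736857, DPF3 and LOC100520720 among the lower ones. Just past 2-fold were MEIS1 (1.02), IRX3 (−1.05), FOXP2 (−1.06) and ZCCHC6 (1.07). The sheet uses group averages that are not the plain means of the deposited signals. Clusters just outside the limit are not in the sheet, carry no name and cannot be assigned to this class.

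The animals differed in how far apart the regions were. The median difference of the 22 higher genes was 1.64, 1.43, 1.76 and 0.75 in pigs 1 to 4, and that of the 22 lower genes −1.40, −1.26, −1.48 and −0.88. Pig 4 had the smallest difference of the 4 pigs for 27 of the 44 genes (61.4%), beside 71.2% of all named clusters. In 7 genes (TCF12, REST, MEIS1, ZFC3H1, USF2, IRX3 and ZNF106) pig 4 was the only animal with the opposite sign, by at most 0.77 on the log2 scale. That largest value, of MEIS1, rests on an infarcted signal below the array median. Infarcted tissue of pig 4 had the lowest infarcted signal in 19 of the 22 higher genes, and its remote tissue the lowest remote signal in 16 of the 22 lower genes. With pigs 1 to 3 alone the regions did not overlap for 43 of the 44 genes (28.6% of all clusters), the exception being ZDHHC2. The genes were chosen on these same arrays, so that share follows from the choice and nothing is read from it.

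**Figure D4:**
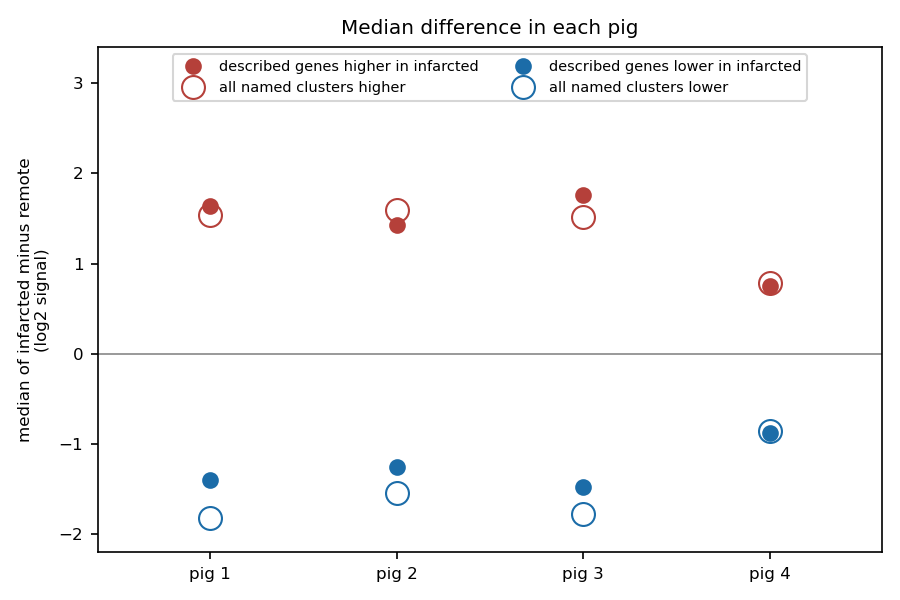
Median infarcted minus remote difference in log2 signal (vertical axis) in each pig for the 22 higher and 22 lower genes (filled) and for the 679 higher and 854 lower named clusters (open). In pig 4 the medians of the described genes are 0.75 and −0.88, nearer to zero than in pigs 1 to 3.

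Both arrays of pig 4 also stood apart over all clusters. The SD of their log2 signals was 1.46 (infarcted) and 1.49 (remote), whereas arrays of pigs 1 to 3 had 1.68 to 1.84, and array medians lay between 2.96 and 3.22. After quantile normalization, which gives every array the same spread, the pig 4 medians were 0.95 for the higher and −1.06 for the lower genes, 6 genes had an opposite sign in 1 pig or more, and the regions did not overlap for 33 genes (12.1% of all clusters), against 28 (10.3% of all clusters) with the signals as deposited. The part of array spread in the smaller differences of pig 4 was not tested. Without pig 4, 22 higher genes (4.64% of all clusters) and 20 lower genes (5.76% of all clusters) passed both limits, against 15 and 15 with all pigs. Counts in this paragraph are over genes chosen on these same signals, so nothing is read from their distance to the shares of all clusters.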

How the data were processed

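RNA of 8 wall samples was hybridised to GeneChip Porcine Gene 1.1 ST arrays. Per the labels and methods, array normalization and annotation were done by the authors with Transcriptome Analysis Console software, and the deposited values are log2 signals of 25470 transcript clusters. The summarisation method is not given in the sources used here. A deposited sheet of the authors' comparison gives IDs, symbols and descriptions, which were used for naming. Its group averages were only compared with plain means of the deposited signals, and its adjusted p-values were not used. Its signed fold changes (a score, at least 2 in size) and its p-values (at most 0.0499) were deposited by the authors and read only to find how it was filtered. Enrichment sheets were not used. The count over the leukocyte factor list is not reported here.

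The description rule was applied to that sheet, and differences were taken within each pig. Genes were named with values where they were among the 10 largest differences each way, in a list, in a factor family, among the 3 widest or 3 narrowest spreads over pigs, nearest the 2-fold limit, or had several clusters. The other genes named with values were chosen after their values were seen. The members and lists were chosen with earlier results of these data known. The model across all clusters was limma (version 3.58.1, R version 4.3.3; region alone, empirical Bayes, Benjamini-Hochberg adjustment), which was run on simulated data. The simulated noise was independent between samples, with no pig effect and no arrays of smaller spread. The simulation therefore cannot show how the fit behaves under these features of the data. Samples of a pig come from 1 heart, so the animals pair the samples. Within pigs 1 to 4 the deviations from the group means correlated at r = 0.177, 0.428, 0.113 and 0.441. The highest r of each infarcted sample with remote tissue of another pig was 0.115, 0.335, −0.0016 and −0.147, so the margin was small in pigs 1 and 2. The alternatives tried were a replicate block for pig, equal array medians, quantile normalization, a filter on the lowest mean signals, trended and robust moderation of the spread, leaving out each array or pig 4, mean clusters, single-symbol clusters, and leaving out other zinc finger proteins. The number of arrays limits the precision. Tables were handled with Python 3.11.15 and pandas 2.3.3, and figures drawn with matplotlib 3.10.9.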

Additional observations from a re-analysis of the deposited data

Results flagged for a closer look

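In 6 of 88 groups of 4 samples (each gene in each region), 1 sample was far from the other 3 by Dixon's criterion. Chance meets this criterion in about 1 of 20 unselected, independent groups. The genes were chosen on these same values and share the same 8 arrays, so that rate does not apply and nothing is read from the count. Of the 6 samples, 4 were from pig 4. Infarcted tissue of pig 4 was at 4.37 for TBX18 (others 5.39 to 5.43), at 4.58 for BNC2 (others 4.78 to 4.80) and at 3.99 for DPF3 (others 2.85 to 2.92), and its remote tissue was at 5.39 for HEY2 (others 6.22 to 6.30). Infarcted tissue of pig 1 was at 4.76 for ELF4 (others 4.15 to 4.21), and remote tissue of pig 3 at 3.78 for SNAI2 (others 3.23 to 3.32).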

How the results depend on the processing

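Over all clusters, 558 were higher and 813 lower past both limits. With the pig as a replicate block 848 were higher and 1161 lower, and without pig 4 1182 were higher and 1467 lower. Leaving out 1 array gave 258 to 1126 higher and 414 to 1357 lower clusters. Of the described genes, 15 higher and 15 lower passed. Among single-symbol clusters alone 9 higher and 9 lower did, with fewer genes counted. With equal array medians 9 higher and 9 lower did, and the cause was not tested. Leaving out 1 array gave 7 to 21 higher and 4 to 18 lower genes, and 10 genes passed in every such fit. With the replicate block 17 higher and 16 lower genes passed, and the block ended no call. The median differences moved by less than their spread between pigs under each alternative run, and no mean difference changed sign. Of the differences of single genes, 7 moved by more than their SD (TFEC, DZIP1, LOC100736857, ZFAND5 and, 3 times, ZNF664). Signals below the array median on at least 1 array limit the sizes for 14 genes, most for RUNX2, ZNF804B, LOC100520720, ZNF365, DPF3 and MEIS1.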
